A study of Mus musculus with 6 samples.

Results

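Macrophages and other myeloid cells of fat were followed here through 45 listed gene symbols, which come to 43 genes because Emr1 and Chi3l3 are older names of Adgre1 and Chil3. A gene became a member where the array holds a probe set annotated with its symbol alone. The brightest such probe set stood for the gene, and dim ones were kept. That left 42 of the 12393 genes of the table. Lilrb4, an inhibitory receptor, has only a probe set shared by the genes Lilrb4a and Lilr4b and was not tested. That probe set read 753, 706 and 646 in YY1aKO, against 1122, 308 and 629 in controls. Macrophages are a main leukocyte population of white fat. Their growth and survival depend on the receptor CSF1R, and the transcription factor PU.1, the product of Spi1, sets up the lineage. Resident macrophages take up debris and iron, lipid-associated macrophages digest lipid around dying adipocytes, and inflammatory macrophages carry integrin and Fc receptor programmes seen in obesity.

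YY1aKO mice carried Yy1 flanked by recombination sites on both alleles (YY1flox/flox) together with Adiponectin Cre, a recombinase driven by a promoter active in adipocytes. Control mice carried the same floxed alleles without the Cre. All mice were 8 weeks old, of mixed C57BL6 and 129 background, and were kept at 4 °C for 4 days, so no sample at a warmer temperature enters the comparison. Each group had 3 arrays, 1 per sample. Separate animals are not stated, so p-values measure the spread between these samples, which may be technical. Cre and Yy1 loss come together in the YY1aKO mice, and their effects cannot be told apart. The labels name both visceral (EWAT) and subcutaneous fat as the tissue. In bulk tissue, fewer cells of a type and less RNA per cell cannot be told apart.

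Every array gave intensities, the brightness of a probe set on a linear scale. Array medians ran from 135 to 141. Yy1 itself read 373, 323 and 315 in YY1aKO 1 to 3, against 1785, 1846 and 1596 in controls 1 to 3, and fell by 2.37 on the log2 scale (SE 0.11, limma adjusted p = 0.0027). Adipoq, the adipocyte hormone adiponectin, read 18586 to 24774 over all arrays. The mesothelial marker Upk3b, which visceral fat carries on its surface, read 1524 to 2645 in YY1aKO and 1098 to 3055 in controls. Control 2 stood apart. The 6 measured epididymis genes summed to 167 to 179 in YY1aKO, to 157 in control 1 and to 843 in control 3. In control 2 they summed to 91325. In the same array 36 of the 42 members were the lowest of the 3 controls, beside 5944 of all 12393 genes. Results are therefore given with all 6 arrays and without control 2. Mean intensity was under 100 in both groups for 7 members.

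Promoters of 4 members are shown first, the 250 bases before the annotated start from RefSeq on build GRCm38.p6, 5′ to 3′ on the gene's strand. Marco and Lgals3 are shown because they were the members that rose, Lgals3 only without control 2, Cd163 because it was the member that fell without control 2, and C1qb as a macrophage gene whose groups overlapped. Capitals mark GAGGAA, letters bound by PU.1, searched on both strands. The shorter GGAA, which the Lgals3 and Cd163 windows also hold, was neither marked nor counted. The windows are chr1:120505025-120505274 for Marco on the minus strand, chr14:47373610-47373859 for Lgals3 on the plus strand, chr6:124304401-124304650 for Cd163 on the plus strand and chr4:136886201-136886450 for C1qb on the minus strand.
Marco: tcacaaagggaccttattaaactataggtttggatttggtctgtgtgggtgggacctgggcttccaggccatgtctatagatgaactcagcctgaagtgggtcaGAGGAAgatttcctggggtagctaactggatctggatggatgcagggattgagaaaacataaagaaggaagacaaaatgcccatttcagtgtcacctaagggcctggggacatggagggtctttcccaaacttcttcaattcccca
Lgals3: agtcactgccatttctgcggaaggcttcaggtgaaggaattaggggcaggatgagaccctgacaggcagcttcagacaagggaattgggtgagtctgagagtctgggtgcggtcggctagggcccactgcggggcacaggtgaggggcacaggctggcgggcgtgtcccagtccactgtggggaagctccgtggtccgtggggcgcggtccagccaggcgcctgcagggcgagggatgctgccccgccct
Cd163: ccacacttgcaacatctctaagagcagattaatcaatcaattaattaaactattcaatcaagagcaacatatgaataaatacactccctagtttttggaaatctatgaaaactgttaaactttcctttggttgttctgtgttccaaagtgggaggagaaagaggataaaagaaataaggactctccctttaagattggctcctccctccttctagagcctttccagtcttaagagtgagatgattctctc
C1qb: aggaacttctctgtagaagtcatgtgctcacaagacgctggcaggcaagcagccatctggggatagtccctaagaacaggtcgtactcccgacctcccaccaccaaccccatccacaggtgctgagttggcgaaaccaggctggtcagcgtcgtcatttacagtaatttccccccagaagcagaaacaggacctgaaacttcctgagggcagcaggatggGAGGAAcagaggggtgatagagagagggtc

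Of the 30 members matched to a promoter window by symbol, 17 (56.7%) held GAGGAA, against 25.9% of the 27025 genes with a window of the same length. Marco and C1qb had 1 match each, and Lgals3 and Cd163 had 0. So the members that rose include 1 with the letters and 1 without. A match is a description and not a binding site.

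Most macrophage markers did not separate the YY1aKO from the control samples. With all 6 arrays 1 of 42 members was higher in YY1aKO at a limma adjusted p under 0.05 and 0 were lower, where 10.8% of all 12393 genes were called, 6.85% higher and 3.99% lower. Without control 2, 2 members were higher and 1 lower, where 26.1% of all genes were called, 14.7% higher and 11.5% lower. The median log2 fold change of the members was 0.21 with all arrays and -0.11 without control 2, beside 0.04 and 0.01 for all genes. With all arrays 32 members had a positive and 10 a negative log2 fold change, beside 6897 positive and 5496 negative over all genes. Without control 2 the tally was 10 positive and 32 negative, beside 6434 and 5959 over all genes, and 22 members turned from positive to negative. A missed threshold does not show equal levels, so the 95% intervals bound what could have been missed. Without control 2 the interval lay within a 2-fold change in either direction for 35 of 42 members (83.3%), against 85.0% of all genes. With all 6 arrays that held for 19 members (45.2%), against 74.1% of all genes.

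**Figure D1:**
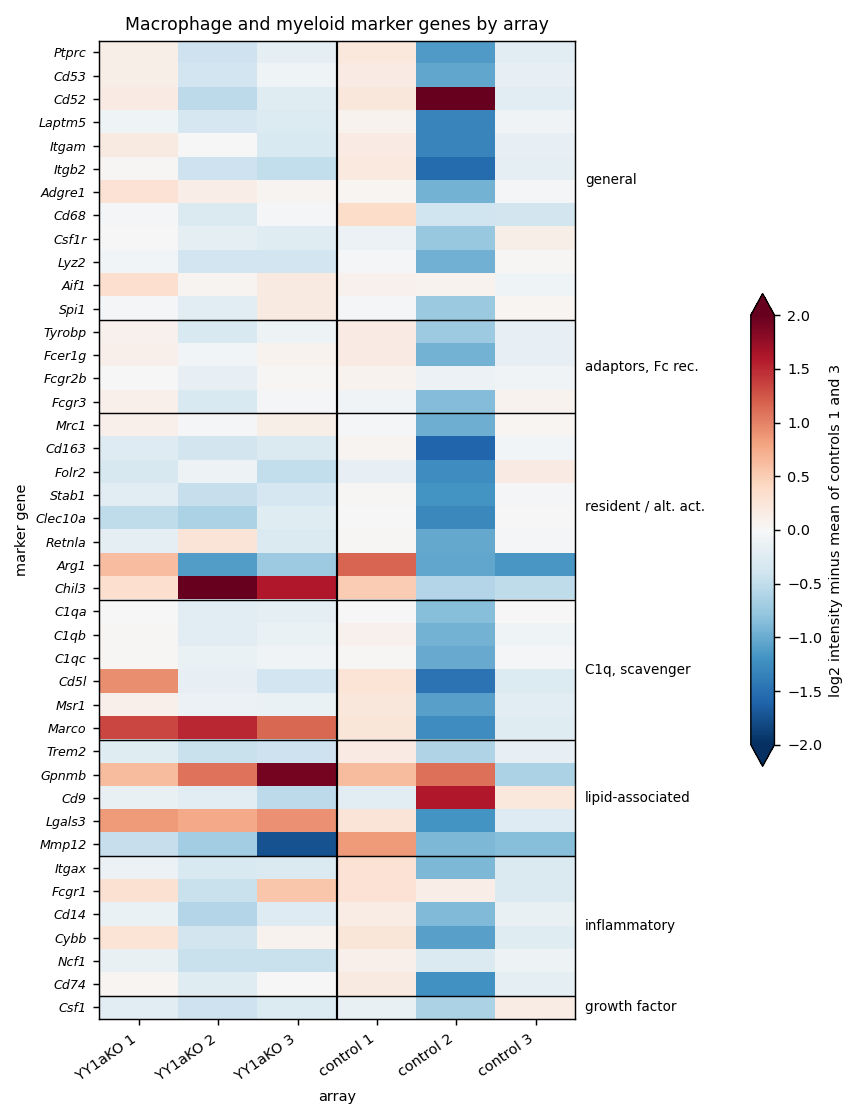
Each row is 1 of the 42 marker genes and each column 1 array, with YY1aKO 1 to 3 left of controls 1 to 3. Colour is the log2 intensity minus the gene's mean in controls 1 and 3, limited to 2 in either direction. The column of control 2 is pale to dark blue for most genes and red for Cd52, Cd9 and Gpnmb, and the rows of Marco and Lgals3 are red in all 3 YY1aKO arrays.

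The array map shows a shift shared by most members within the control group. Relative to the mean of controls 1 and 3, the median member stood at 0.02 in YY1aKO 1, -0.27 in YY1aKO 2 and -0.185 in YY1aKO 3 on the log2 scale. In control 2 it stood at -0.945, in control 1 at 0.15 and in control 3 at -0.15. Among the YY1aKO arrays, array 1 had the highest value for 30 members and array 2 the lowest for 28. Over all 12393 genes these counts were 4208 and 3910. The other way, 3 members stood higher in control 2 than in both other controls, beside 4478 of all genes. Cd52 was 7.32-fold, Cd9 3.02-fold and Gpnmb 2.15-fold the level of the other controls. CD52 is also a surface protein of the epididymis, and CD9 is found on many epithelia. Whether the epididymal RNA of that array accounts for these readings was not tested.

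**Figure D2:**
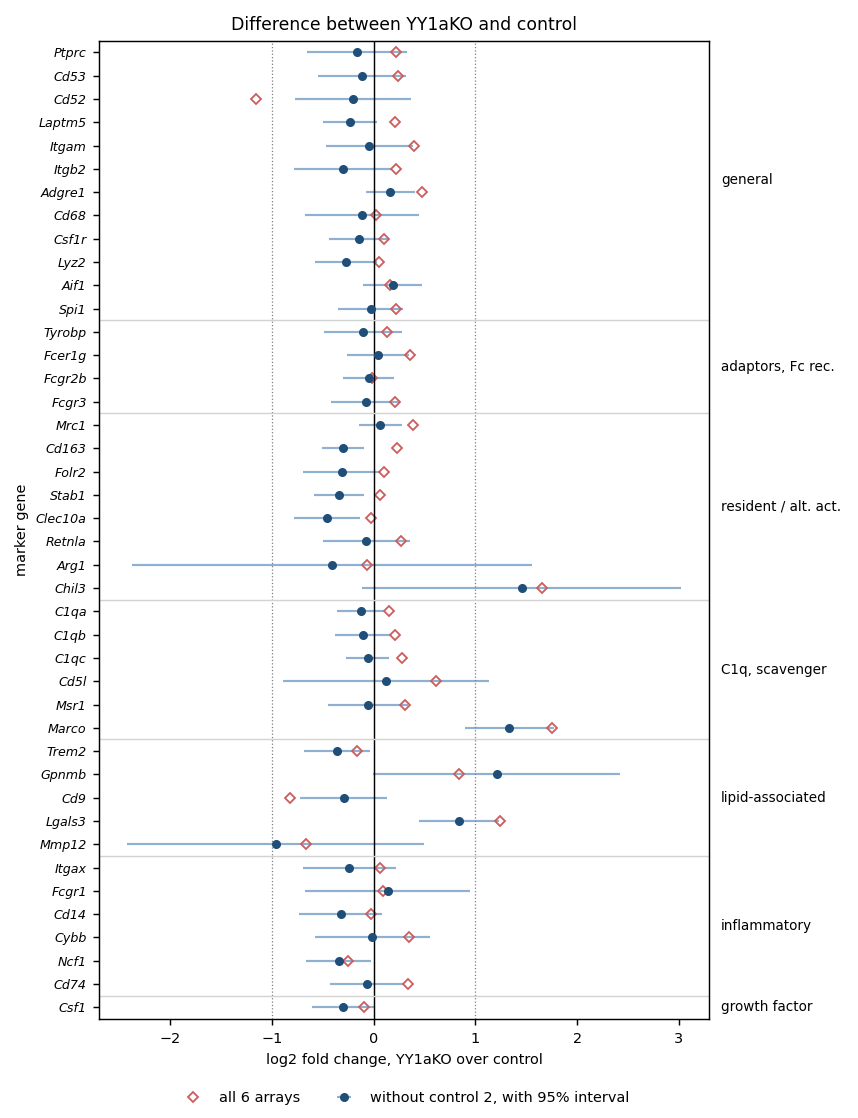
Log2 fold change of YY1aKO over control (x axis) for each marker gene (y axis), by class. Filled circles with bars are the values and 95% intervals without control 2, open diamonds the values with all 6 arrays, and dotted lines mark a 2-fold change. The intervals of Marco, Lgals3, Cd163, Stab1, Clec10a, Trem2, Ncf1 and Csf1 without control 2 lie on 1 side of 0, and those of Arg1, Chil3, Gpnmb and Mmp12 are wide.

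The general leukocyte and myeloid markers gave no call in either comparison, where 10.8% and 26.1% of all genes were called. Among the 12, the log2 fold change without control 2 ran from -0.30 for Itgb2 to 0.19 for Aif1, and all 12 intervals lay within a 2-fold change. Adgre1, which encodes the macrophage antigen F4/80, read 488, 441 and 418 in YY1aKO, against 413, 208 and 389 in controls. The groups did not overlap, but the difference of 0.48 ± 0.28 on the log2 scale (SE, n = 3 per group) had a limma adjusted p of 0.32, and without control 2 it was 0.16 (95% interval -0.08 to 0.41). With all arrays the groups did not overlap for 3 members, Adgre1, Marco and Lgals3, all higher in YY1aKO, and for 37.9% of all genes (22.4% higher and 15.5% lower). Csf1r, the growth factor receptor of the lineage, read 4189, 3686 and 3571 in YY1aKO, against 3870.4, 2506 and 4591 in controls. With all arrays its YY1aKO values lay inside the range of the controls. Without control 2, YY1aKO 2 and 3 lay below both controls, with a log2 difference of -0.15 (95% interval -0.44 to 0.14). Lyz2, the lysozyme of phagocytes, read 6357, 5091 and 5081 in YY1aKO, against 6494, 3402 and 6730.3 in controls. Without control 2 its YY1aKO values all lay below the controls, with a log2 difference of -0.27 (adjusted p = 0.17). Ptprc, the pan-leukocyte antigen CD45, read 817, 563 and 659 in YY1aKO, against 870.0, 342 and 651 in controls. Cd68, a lysosomal glycoprotein of macrophages, read 431, 358 and 434 in YY1aKO, against 566, 334 and 342 in controls, and the groups overlapped. Spi1 had low readings of 70.3 to 92.2 in YY1aKO and 48.6 to 83.6 in controls. The integrin chains Itgam and Itgb2, which pair as the complement receptor CR3, differed by -0.04 and -0.30 without control 2. Cd53 and Laptm5, membrane proteins of leukocytes, differed by -0.11 and -0.23. Intervals of all of these included 0. Cd52, a surface glycoprotein of leukocytes, read 957, 593 and 720.0 in YY1aKO, against 996, 6253 and 733 in controls, with control 2 far above the rest. Aif1, the calcium-binding protein IBA1 of macrophages, read 224, 183 and 201 in YY1aKO, against 188, 187 and 167 in controls, with overlap.

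Signalling adaptors and Fc receptors likewise overlapped between the groups. Tyrobp, the ITAM adaptor DAP12 through which TREM2 signals, read 1694, 1282 and 1490.3 in YY1aKO, against 1781, 965 and 1422 in controls. Fcer1g, the common Fc receptor gamma chain, read 648, 584 and 637 in YY1aKO, against 678, 314 and 538 in controls. The activating receptor Fcgr3 and the inhibitory receptor Fcgr2b differed by -0.08 (95% interval -0.42 to 0.26) and -0.05 (-0.30 to 0.20) without control 2. All 4 intervals of this group lay within a 2-fold change. In control 2, Fcgr2b lay only 0.11 below the other controls on the log2 scale, while Fcer1g lay 0.94 below them.

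Marco was the member that rose in both comparisons. It encodes a scavenger receptor that binds bacteria and particles and is restricted to subsets of macrophages. It read 161, 181 and 141 in YY1aKO, against 75.2, 26.9 and 53.9 in controls. The control readings were dim, and a low reading may hold much background. Every YY1aKO sample lay above every control, and control 2 was the lowest. The log2 fold change was 1.75 ± 0.38 (SE, n = 3 per group) with a limma adjusted p of 0.041, and without control 2 it was 1.33 ± 0.18 (95% interval 0.90 to 1.77, adjusted p = 0.0058), or 2.52-fold. The call with all arrays ended when control 3 or any YY1aKO array was left out, with adjusted p of 0.11 to 0.16 and log2 fold changes of 1.66 to 1.84. With control 2 already left out, it held when each further array was left out (adjusted p 0.0034 to 0.028).

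The other 2 scavenger proteins and the 3 C1q chains gave no call in either comparison, beside 10.8% and 26.1% of all genes. C1qa, the first of the 3 chains of the complement starter C1q made mainly by macrophages, read 2387, 2066 and 2108 in YY1aKO, against 2397, 1328 and 2373 in controls. C1qb and C1qc overlapped as well, with differences of -0.11 (95% interval -0.38 to 0.16) and -0.06 (-0.27 to 0.15) without control 2. In control 2 the 3 chains lay 0.84, 0.95 and 1.00 below the other controls on the log2 scale. Msr1, the class A scavenger receptor, differed by -0.05 (-0.45 to 0.34). Cd5l, a secreted inhibitor of apoptosis from macrophages, read 230.0, 108 and 92.7 in YY1aKO, against 146, 43.8 and 101 in controls. With YY1aKO 1 high and the other YY1aKO samples near control 3, its interval without control 2 ran from -0.89 to 1.13.

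Of the 8 resident and alternatively activated markers, 0 passed with all arrays and 1, Cd163, was lower without control 2. Of all genes, 10.8% were called with all arrays, and 11.5% were lower without control 2. Mrc1, the mannose receptor CD206, read 1293, 1188 and 1316 in YY1aKO, against 1181, 614 and 1236 in controls. Without control 2 its groups overlapped and the difference was 0.07 (95% interval -0.15 to 0.28). Cd163, the scavenger receptor for haemoglobin-haptoglobin complexes, read 889, 822 and 867 in YY1aKO, against 1095, 352 and 1024 in controls. All 3 YY1aKO values lay below controls 1 and 3 and above control 2. With all arrays the difference was 0.23 ± 0.45 (adjusted p = 0.78), and without control 2 Cd163 fell by 0.30 on the log2 scale (SE 0.08, 95% interval -0.51 to -0.10, limma adjusted p = 0.047). That call ended when any further array was left out (adjusted p 0.082 to 0.16). Stab1, the scavenger receptor stabilin-1, read 269.5, 228 and 249.9 in YY1aKO, against 320.3, 137 and 310.4 in controls. Clec10a, a galactose-binding lectin of alternatively activated macrophages, read 703, 647 and 853 in YY1aKO, against 1013, 410.3 and 995 in controls. For both, as for Cd163, all YY1aKO values lay above control 2 and below the other controls, with log2 differences of -0.34 ± 0.10 and -0.46 ± 0.13 without control 2, and both missed the threshold with an adjusted p of 0.052. Folr2, the folate receptor beta of resident macrophages, differed by -0.31 (-0.70 to 0.08).

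Products of alternative activation were more variable. Retnla, a secreted protein induced by type 2 cytokines, read 6802, 9333 and 6392 in YY1aKO, against 7919, 3840.5 and 7665 in controls, with overlap. Chil3, the chitinase-like protein Ym1, read 28.5, 122 and 68.5 in YY1aKO, against 32.2, 15.1 and 15.8 in controls. The higher readings were those of YY1aKO 2 and 3, while YY1aKO 1 lay inside the control range, and the difference of 1.65 ± 0.59 did not pass (adjusted p = 0.14). Arg1, the arginase of alternatively activated macrophages, read 61.7, 18.6 and 24.4 in YY1aKO, against 90.3, 19.7 and 17.9 in controls. Its high readings were 1 sample in each group.

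**Figure D3:**
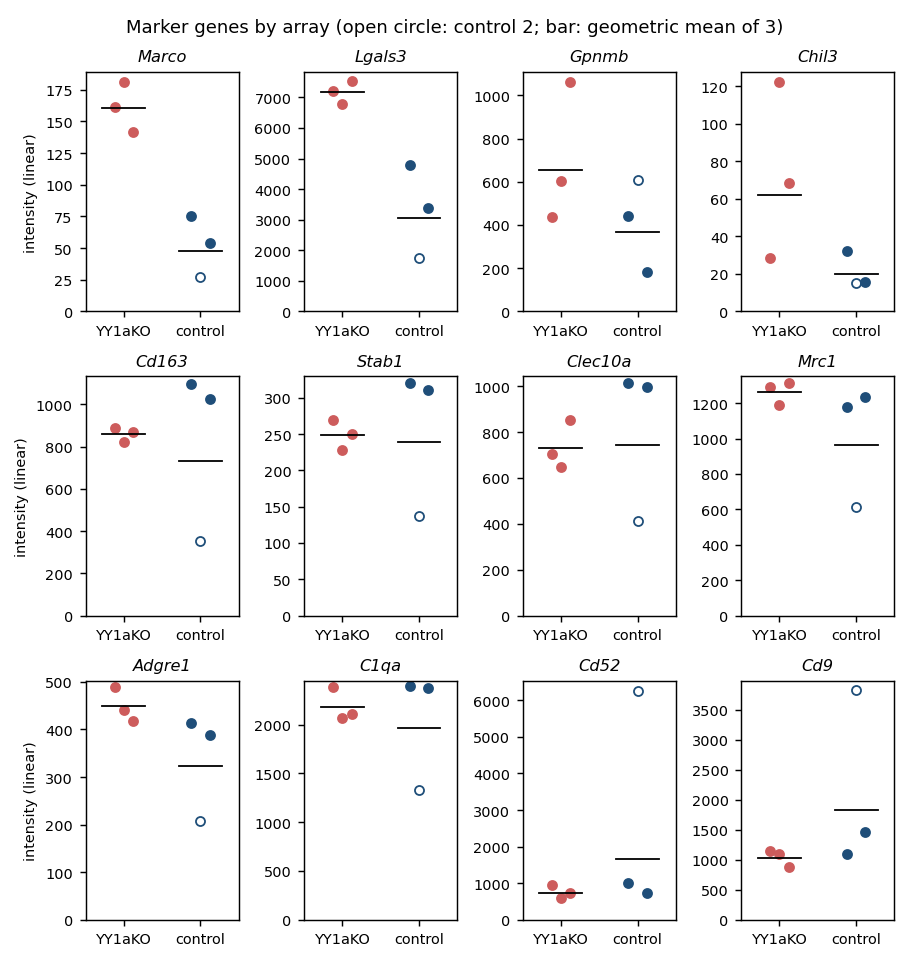
Linear intensity (y axis) of 12 marker genes in YY1aKO samples (left) and control samples (right). Points are single arrays, the open circle is control 2 and bars are geometric means of 3 arrays. Marco and Lgals3 separate the groups, and for Cd163, Stab1 and Clec10a the YY1aKO points lie between control 2 and the other controls.

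Of the 5 lipid-associated markers, 0 passed with all arrays and 1, Lgals3, was higher without control 2. Shares over all genes were 10.8% called with all arrays and 14.7% higher without control 2. Lgals3, galectin-3, a sugar-binding protein of activated macrophages that other cells also make, read 7226, 6800.3 and 7535 in YY1aKO, against 4779, 1749 and 3369 in controls. Every YY1aKO value lay above every control. The log2 fold change was 1.24 ± 0.36 with an adjusted p of 0.086 with all arrays, and without control 2 Lgals3 rose by 0.84 ± 0.16 (95% interval 0.45 to 1.23, limma adjusted p = 0.016), or 1.79-fold. With control 2 left out, the call ended on leaving out any YY1aKO array as well (adjusted p 0.051 to 0.059). Gpnmb, a glycoprotein induced by lysosomal load, read 438, 603 and 1063 in YY1aKO, against 439.9, 608 and 183 in controls. The low value was control 3 and the high value YY1aKO 3, and the difference without control 2 was 1.21 (-0.01 to 2.42, adjusted p = 0.13). Trem2, the lipid receptor that defines these cells, read 134, 116 and 118 in YY1aKO, against 177, 104 and 140.4 in controls. Without control 2 it differed by -0.36 ± 0.13 (adjusted p = 0.096), while its dimmer probe set differed by -0.0044. Cd9, a tetraspanin, read 1148, 1098 and 880.1 in YY1aKO, against 1102, 3835 and 1464 in controls. Mmp12, the macrophage elastase, read 147, 125 and 60.6 in YY1aKO, against 366, 108 and 112 in controls. Its high reading was control 1 alone.

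None of the 6 inflammatory markers passed in either comparison, where 10.8% and 26.1% of all genes were called. Itgax, the integrin CD11c, read 125, 110.3 and 111 in YY1aKO, against 167, 73.1 and 111 in controls. Cd14, the co-receptor for bacterial lipopolysaccharide, read 549, 402 and 504 in YY1aKO, against 669, 325 and 543 in controls. The invariant chain Cd74, which guides MHC class II molecules, read 592, 486 and 575 in YY1aKO, against 650.2, 248 and 507 in controls. Each of these had overlapping groups with all arrays. The phagocyte oxidase genes Cybb and Ncf1 differed by -0.01 (-0.58 to 0.55) and -0.35 (-0.67 to -0.03) without control 2, the second with an adjusted p of 0.11. Fcgr1, the high-affinity IgG receptor, differed by 0.14 (-0.67 to 0.95). Cybb, Ncf1 and Fcgr1 read under 103 on every array, where a low reading may hold much background.

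The 3 classes were set side by side by the medians and ranges of their members. Without control 2 the median log2 fold change was -0.31 for the 8 resident, -0.295 for the 5 lipid-associated and -0.15 for the 6 inflammatory markers, beside 0.01 for all genes. With all 6 arrays the medians were 0.17, -0.16 and 0.08. The spread within a class was wider than the distance between classes: without control 2 the resident class ran from -0.46 to 1.46, the lipid-associated from -0.965 to 1.21 and the inflammatory from -0.345 to 0.14. Groups that do not overlap with YY1aKO lower were seen without control 2 for 3 resident, 1 lipid-associated and 1 inflammatory marker, and for 8 of all 42 members, while 3 members lay higher without overlap. Over all genes 55.3% did not overlap in that comparison, 30.1% with YY1aKO higher and 25.2% with YY1aKO lower. The summed intensity of the lipid-associated class was 8743 to 9658 in YY1aKO, 5268 to 6864 in controls 1 and 3 and 6404 in control 2. Most of it was Lgals3, which alone read 6800 to 7535 in YY1aKO and 3369 to 4779 in those controls. Of the 5 genes of this class, 2 had positive and 3 negative log2 fold changes, in both comparisons. Without control 2 the tally was 2 positive and 6 negative for resident markers, and 1 and 5 for inflammatory markers. With all arrays it was 6 and 2 for resident and 4 and 2 for inflammatory markers. For the inflammatory class the summed intensities were 1171 to 1522 in YY1aKO, 1362 to 1753 in controls 1 and 3 and 829 in control 2. Those of the resident class were 10326 to 13089 in YY1aKO, 12147 to 12350 in controls 1 and 3 and 5719 in control 2. The brightest genes were Cd74 and Cd14 in the inflammatory and Retnla in the resident class.

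On the growth factor side of the lineage, 1 gene was called in both comparisons. Csf1, a ligand of CSF1R and itself a member, read 634, 554 and 609 in YY1aKO, against 663, 479 and 823 in controls, with a difference of -0.31 ± 0.12 without control 2 (adjusted p = 0.13). Its 4 probe sets disagreed, 2 with positive and 2 with negative differences. Il34, the other ligand of CSF1R and not a member, read 83.7, 82.9 and 74.1 in YY1aKO, against 205, 160.2 and 240.4 in controls. All YY1aKO values lay below all controls. Il34 fell by 1.31 on the log2 scale (SE 0.17, n = 3 per group, limma adjusted p = 0.013) and by 1.47 without control 2 (adjusted p = 0.0018). The call with all arrays ended without control 3 or any YY1aKO array (adjusted p up to 0.078), and with control 2 left out it held without each further array. Among 16 measured genes of this axis and of lineage regulation, Il34 was the only call with all arrays. Over all genes 10.8% were called, 3.99% lower. The list held 1 higher and 2 lower calls without control 2, where 14.7% of all genes were higher and 11.5% lower. Without control 2, Nr1h3, the oxysterol receptor LXR alpha, rose by 0.70 ± 0.13 (adjusted p = 0.015, lost without YY1aKO 2 or 3), and Csf2ra, a receptor chain for GM-CSF, fell by 0.46 (adjusted p = 0.021, lost without control 1 or any YY1aKO array).

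**Figure D4:**
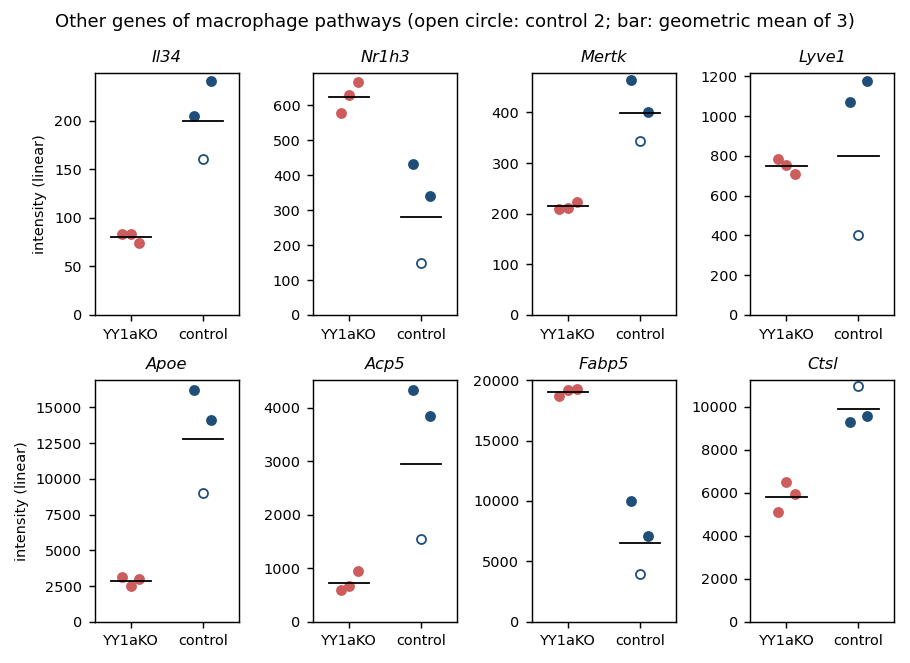
Linear intensity (y axis) of 8 further genes of macrophage pathways in YY1aKO samples (left) and control samples (right), with points as single arrays, the open circle as control 2 and bars as geometric means of 3 arrays. Il34, Mertk, Apoe, Acp5 and Ctsl lie lower in all YY1aKO arrays than in any control, and Fabp5 and Nr1h3 higher.

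Other resident macrophage genes held 1 call among 12 with all arrays, lower in YY1aKO, and 4 lower without control 2. The shares of all genes called lower were 3.99% and 11.5%, and 10.8% and 26.1% were called in either direction. Mertk, a receptor for the clearance of dead cells, read 209.7, 211 and 224 in YY1aKO, against 465, 343 and 400.5 in controls. It fell by 0.90 (SE 0.13, adjusted p = 0.016) and by 1.01 without control 2 (adjusted p = 0.0030). The first call ended without control 3 or any YY1aKO array, and the second held without each further array. Lyve1, a hyaluronan receptor of perivascular macrophages and of lymphatic vessels, read 782, 756 and 710.3 in YY1aKO, against 1071, 402 and 1176 in controls, and fell by 0.58 without control 2 (adjusted p = 0.0088). The lectins Cd209f and Cd209g fell by 0.61 and 0.44 in that comparison (adjusted p = 0.017 and 0.014, both lost without control 3 or YY1aKO 3).

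Among 11 further lipid-handling genes of these macrophages, 1 was higher and 3 were lower with all arrays, and 3 were higher and 3 lower without control 2. Over all genes 6.85% were higher and 3.99% lower with all arrays, and 14.7% and 11.5% without control 2. Several are made by adipocytes as well. Apoe, the lipoprotein component, read 3133, 2497 and 2984 in YY1aKO, against 16220.0, 9037 and 14121 in controls. It fell by 2.16 (SE 0.24, adjusted p = 0.010) and it fell by 2.40 without control 2 (adjusted p = 0.0011). Acp5, the tartrate-resistant acid phosphatase of osteoclasts and macrophages, read 603, 676 and 954 in YY1aKO, against 4332, 1545 and 3840.1 in controls, and fell by 2.02 (adjusted p = 0.039). Ctsl, a lysosomal protease, fell by 0.77 (adjusted p = 0.022). Fabp5, a fatty acid carrier of macrophages and adipocytes, read 18718, 19153 and 19248 in YY1aKO, against 10032, 3957 and 7073 in controls, and rose by 1.54 ± 0.33 (adjusted p = 0.041). The calls of Apoe, Ctsl and Fabp5 with all arrays ended without control 3 or any YY1aKO array, and that of Acp5 on leaving out any array but control 2. With control 2 already left out, all 4 held without each further array. Without control 2, Plin2, which coats lipid droplets, and the protease Ctsd rose by 0.82 and 0.35 (adjusted p = 0.018 and 0.048). The Plin2 call was lost without control 3, YY1aKO 2 or YY1aKO 3, and the Ctsd call without control 3 or any YY1aKO array.

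The remaining lists are read against the same shares, 10.8% of all genes called with all arrays and 26.1% without control 2. The shares called lower were 3.99% and 11.5%. Of 18 inflammatory cytokines and receptors, Ptgs2, the inducible cyclooxygenase, fell by 0.81 (adjusted p = 0.024, lost without control 3 or any YY1aKO array), at readings of 25.8 to 29.8 in YY1aKO and 40.4 to 55.2 in controls. Without control 2 the endotoxin receptor Tlr4 and the cytokine Il18 fell as well, by 0.93 and 0.84 (adjusted p = 0.012 and 0.016, the second lost without YY1aKO 2). Of 10 type 2 cytokine genes and 11 kinases and adaptors after ITAM receptors, 0 passed with all arrays. Without control 2 the receptor chain Il13ra1 fell by 0.62 (adjusted p = 0.049) and the adaptor Blnk by 0.79 (adjusted p = 0.042), both calls lost without control 3, YY1aKO 2 or YY1aKO 3. Of 3 further oxidase subunits Cyba fell by 0.49 without control 2 (adjusted p = 0.025, lost without control 1, YY1aKO 2 or YY1aKO 3). MHC class II genes (6) and other general macrophage genes (18) gave 0 calls in either comparison, with H2-Aa at 0.03 and Slc11a1 at -0.52 without control 2. Over the 105 measured genes of these 9 lists the median was -0.10 without control 2, close to the -0.11 of the members. With all arrays the medians were 0.1 for these genes and 0.21 for the members.

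Marker lists of several other cell types had negative medians without control 2, and some of these turned with the choice of arrays. Without control 2 the median log2 fold change was -0.23 for 7 adipocyte genes, -0.39 for 6 endothelial genes, -0.45 for 6 genes of progenitors and fibroblasts and -0.53 for 4 mesothelial genes. All 6 endothelial, all 6 progenitor and all 4 mesothelial genes then had negative values. With all arrays the medians were 0.11 for adipocyte, 0.11 for endothelial, -0.22 for progenitor and fibroblast and -0.03 for mesothelial genes. The endothelial genes summed to 1890 to 2336 in YY1aKO, against 2583 to 3076 in controls 1 and 3 and 1023 in control 2. For adipocyte genes the sums were 83179 to 88629 in YY1aKO, against 100640 to 107120 in controls 1 and 3 and 66147 in control 2. Control 2 thus lay below every YY1aKO array for both lists. The list of 5 genes of brown and beige adipocytes had a median of 2.21 with all arrays and 2.18 without control 2. All 5 values were positive with all arrays. Without control 2, 4 were positive and 1 was negative, at -0.46. Of the 5 genes, 2 were higher past the threshold in both comparisons, where 6.85% and 14.7% of all genes were. Ucp1, the heat-producing uncoupling protein, read 118, 67.6 and 306 in YY1aKO, against 24.7, 23.8 and 25.5 in controls, and rose by 2.45 (adjusted p = 0.041, lost on leaving out any array but control 2). Cidea, a lipid droplet protein of brown fat, read 580, 676 and 845 in YY1aKO, against 199.8, 63.8 and 99.4 in controls, and rose by 2.68 (adjusted p = 0.020, lost without control 3 or any YY1aKO array). With control 2 already left out, the Ucp1 call was lost without control 1, control 3 or YY1aKO 1. That of Cidea held without each further array. T cell genes had a median of -0.01 without control 2, and their single readings stayed at 31.1 to 86.4 in YY1aKO and 30.9 to 84.9 in controls. In that comparison the medians were -0.14 for B cell, -0.03 for mast cell, 0.03 for dendritic cell and -0.05 for NK cell genes, against 0.17, 0.11, 0.08 and -0.02 with all arrays. Eosinophil genes read at most 23.3 in YY1aKO and 21.7 in controls. The 8 neutrophil genes had a median of -0.06 without control 2, with 4 positive and 4 negative values. They held 1 call, lower in YY1aKO, where 11.5% of all genes were lower. That call was S100a8, which read 111, 85.1 and 112 in YY1aKO, against 197, 84.3 and 148 in controls, and fell without control 2 (adjusted p = 0.031, lost without control 1 or any YY1aKO array). The part of these shifts in the values of the macrophage markers was not tested.

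**Figure D5:**
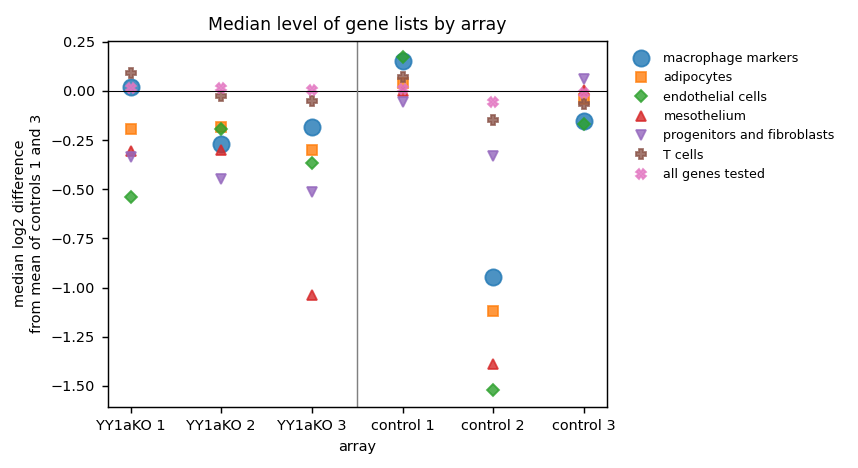
Median log2 difference from the mean of controls 1 and 3 (y axis) of gene lists in each array (x axis), with YY1aKO arrays left of the controls. Large circles are the 42 macrophage markers, which stand between -0.27 and 0.02 in YY1aKO and at -0.945 in control 2. Adipocyte, endothelial and mesothelial genes are also low in control 2, while the median of all genes tested stays near 0.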

How the data were processed

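The authors deposited a linear intensity for every probe set of each 1-colour Affymetrix array. The submitters' processing notes name RMA, without a version or settings. Biotin-labelled cRNA was made from Trizol-extracted total RNA, per the labels' protocols. RMA makes the distributions of the arrays alike, so a change shared by most genes is removed. How they were returned to the linear scale is not given in the sources used here. Their log2 was taken. Detection calls were not used, so the background within dim readings is unknown, and the number of arrays limits the precision. Values lay between 6.09 and 30322.

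The table held 22690 probe sets, 64 of them array controls. The platform annotation gives 1 gene symbol for 20380 probe sets, several for 691 and none for 1555, and 20351 were matched to the RefSeq gene table by Entrez ID. Each of 12393 genes was represented by its brightest probe set, chosen by mean log2 intensity. limma 3.58.1 in R 4.3.3 (lmFit, eBayes) compared 3 YY1aKO with 3 control arrays, and with 2 controls without control 2, by two-sided tests with Benjamini-Hochberg adjustment over all genes and a threshold of 0.05. Fold changes are YY1aKO over control. The script was tested on simulated data. All members are described. From each further list, up to 4 genes past the threshold in either comparison were named, or up to 2 with the smallest p, and Plin2, Ctsd, Ucp1, Cidea and S100a8 were named after their values were seen. Alternatives covered the choice of probe sets, brightness, scaling, the variance prior, array weights, a replicate block and leaving out each array. Members and lists were chosen with earlier results of these data known.

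Arrays with the same replicate number did not deviate together (correlation across genes of deviations from the group mean -0.124, -0.084 and -0.0963 for numbers 1 to 3), so the numbers were not used as pairs. Arrays with different numbers gave correlations of 0.0125 to 0.0799. With 3 arrays per group such correlations cannot exclude a pairing.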

Additional observations from a re-analysis of the deposited data

Results flagged for a closer look

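A probe set shared by the genes Chil4 and Chil3, which entered no comparison because it names both genes, averaged 53.2 in YY1aKO and 25.0 in controls. It read 31.3, 76.1 and 52.1 in YY1aKO, against 31.3, 20.6 and 23.0 in controls. The difference was not tested, and its higher readings were those of YY1aKO 2 and 3, as for the probe set of Chil3 alone. Groups of 3 arrays were not tested for single extreme samples.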

How the results depend on the processing

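With all 6 arrays 1344 genes passed, against 4893 with array weights, and 25 to 3239 when each array was left out in turn, the highest count without control 2. Members higher in YY1aKO, 1 in the analysis as reported, numbered 0 among the brightest 60% of genes (32 members tested, Marco not among them), 4 with array weights and 0 to 2 on leaving out an array, and members lower numbered 1 with array weights and 0 to 1 on leaving out an array. Without control 2, 3239 genes passed, and 1747 to 3018 when a further array was left out. Members higher, 2 as reported, were then 1 among the brightest 60% of genes and 1 to 3 on leaving out an array. Members lower, 1 as reported, were 2 with probe sets averaged within a gene, 2 with quantile normalization repeated, 2 with an intensity trend and robust prior, 3 among the brightest 60% of genes, 3 with 16 added before log2, 0 with equal array medians, 0 with array weights and 0 to 2 on leaving out an array. On leaving out a further array the median of resident markers without control 2 ran from -0.32 to -0.15 and that of inflammatory markers from -0.35 to 0.086. That of lipid-associated markers ran from -0.37 to -0.09 and was -0.18 with probe sets averaged and -0.0044 without _s_at and _x_at probe sets. With all arrays it was -0.16, against 0.05 without those probe sets and 0.02 without control 1. Without control 2, 22 members changed sign. Among the members and listed macrophage genes called there, Cd163 (0.23 with all arrays) and the non-member Cd209g (0.19) turned to -0.30 and -0.44, and on leaving out each array in turn they reached 0.52 and 0.51. The cause was not tested. The number of arrays and the dim readings of 7 members limit what could be seen.

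Replicate numbers were not used as pairs. With the replicate number as a block 12 genes passed with all arrays, with 0 members higher, and 542 without control 2, with 1 member higher and 0 lower. There the block of number 2 holds a single array.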
